A study of Mus musculus with 6 samples.

Results

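Cspg4, Fyn, Bmp4, Pdgfra and Olig1 are 5 genes known from oligodendrocyte precursor cells, and they were taken by name from the 329 gene symbols measured in sorted cells of mouse hypothalamus. The cells came from C57/Bl6 mice carrying Klb-Cre and the Ai14 reporter, in which tdTomato marks cells whose lineage has expressed Klb, the co-receptor of the hormone FGF21. There was 1 genotype and no treatment, and the labels used here give no age. Each of 3 captures pooled 3 hypothalami and was sorted for tdTomato and viability. Every capture was amplified with 2 targeted primer panels, for 6 libraries in all, named here by panel and replicate from P1-rep1 to P2-rep3. A larger set of 265 genes, with Cspg4, Fyn and Bmp4, was measured in P1-rep1 (950 cells), P2-rep1 (44), P2-rep2 (43) and P2-rep3 (87). A smaller set of 75 genes, with Pdgfra and Olig1, was measured in P1-rep2 (25 cells) and P1-rep3 (104). The 104 cells were read from the table titled panel 2 of replicate 3, whose header names the smaller set, and are called P1-rep3 because they carry that set and stand with the same counts in the table titled panel 1. No library measured all 5 genes, so a precursor cell could not be called from their joint detection.

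Oligodendrocyte precursor cells are the dividing glia from which myelinating oligodendrocytes arise in the adult brain. Pdgfra encodes the receptor for platelet-derived growth factor, the main mitogen of these cells, and Olig1 a basic helix-loop-helix transcription factor of the lineage. Cspg4 encodes the proteoglycan NG2 on their surface, and is also known from pericytes and other mural cells, just as Pdgfra is known from fibroblasts. Fyn encodes a Src family kinase that acts in myelination, and Bmp4 a secreted ligand that holds back oligodendrocyte differentiation. The amplicons are named for the transcripts NM_139001.2 (Cspg4), NM_001122892.1 (Fyn), NM_001316360.1 (Bmp4), NM_001083316.1 (Pdgfra) and NM_016968.4 (Olig1). Levels of different genes are not compared, since primers may differ in yield.

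Promoters of Cspg4 and Bmp4 are shown because, within the larger set, these genes were found in the most and the fewest libraries. The sequences are the 250 bases before the annotated start, from RefSeq on build GRCm38.p6, which is not the build of the deposited files. Capitals mark the E-box CANNTG, a motif that basic helix-loop-helix factors are known to bind, and the GC box GGGCGG, searched on both strands, and no 2 matches overlapped. The window of Cspg4 lies at chr9:56864854-56865103 on the plus strand, and that of Bmp4 at chr14:46390670-46390919 on the minus strand.
Cspg4: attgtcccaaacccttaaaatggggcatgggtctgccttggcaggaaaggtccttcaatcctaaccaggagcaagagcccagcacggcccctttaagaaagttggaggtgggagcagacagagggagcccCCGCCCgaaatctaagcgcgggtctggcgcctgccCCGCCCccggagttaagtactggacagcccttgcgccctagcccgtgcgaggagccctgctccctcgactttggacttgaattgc
Bmp4: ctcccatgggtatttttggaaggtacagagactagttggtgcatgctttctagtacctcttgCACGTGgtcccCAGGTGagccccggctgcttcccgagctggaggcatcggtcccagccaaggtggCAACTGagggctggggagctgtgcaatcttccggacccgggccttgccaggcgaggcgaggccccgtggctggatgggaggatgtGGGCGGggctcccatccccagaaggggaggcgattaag
The Cspg4 window held 0 E-boxes and 2 GC boxes, and the Bmp4 window held 3 E-boxes and 1 GC box. Of 32851 promoters of this length, 66.2% held an E-box and 32.7% a GC box, so the matches are a description of these letters only.

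The libraries differed widely in depth. Library totals over kept cells ran from 11423 to 105772 UMIs, and the median cell carried 51 UMIs in P1-rep1 and 1352 in P2-rep2. In the smaller set, C1qa, a microglial complement gene, took 85.0% and 92.7% of all UMIs in P1-rep2 and P1-rep3. P2-rep1 stood apart, with a median of 115.5 UMIs, 50 detected genes and a median share of 71.6% over those genes. The tables of replicate 3 list the same barcodes under both panels, and 21 barcodes found in the tables of 2 replicates were left out of every comparison. Among the kept cells, P1-rep3 and P2-rep3 shared 2 cell indices and no other 2 libraries shared any. Intervals are exact 95% intervals that cover counting error alone, and limits for a count of 0 use 3 counts.

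Cspg4 was in nearly all cells of every library that measured it, but its level differed several-fold between them. It had a UMI in 864 of 950 cells of P1-rep1 (90.9%, 88.9 to 92.7). Panel 2 had it in 43 of 44 (P2-rep1), 43 of 43 (P2-rep2) and 87 of 87 cells (P2-rep3), a mean of 99.2% ± 1.31 (SD, n = 3). High shares were common in panel 2: the median share of detected genes was 71.6%, 97.7% and 82.8% in P2-rep1, P2-rep2 and P2-rep3. In P1-rep1 that median was 12.4%, and Cspg4 ranked 2 by share among the 157 detected genes. Levels are UMIs of the gene per 1000 UMIs of the library. The level was 40.4 (39.2 to 41.6) in P1-rep1, and 42.5 (38.8 to 46.4), 5.64 (5.13 to 6.19) and 9.48 (8.89 to 10.1) in P2-rep1, P2-rep2 and P2-rep3. The 2 libraries of replicate 1 had overlapping intervals, while P2-rep2 and P2-rep3 lay below both and apart from each other. The level in P1-rep1 was 7.16-fold that in P2-rep2 (6.50 to 7.91), and 4.26-fold that in P2-rep3 (3.97 to 4.58). The P2-rep1 level rested on few cells: 1 cell held 183 of the 485 Cspg4 UMIs, and the level without it was 30.8. Without the 2 cells of the highest level, which held 259 of them, it was 23.5 (20.5 to 26.7), below P1-rep1 and above the other panel 2 libraries. The median cell had 38.9 Cspg4 UMIs per 1000 in P1-rep1 and 28.2 in P2-rep1.

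Fyn was in every cell of 2 libraries and in no cell of another. It had a UMI in 233 of 950 cells of P1-rep1 (24.5%, 21.8 to 27.4). It was in 0 of 44 cells of P2-rep1, which allows a share of up to 6.82%, and in all 43 and all 87 cells of P2-rep2 and P2-rep3. Of the 93 and 119 genes detected in P2-rep2 and P2-rep3, 44 and 38 were in every cell, and P2-rep1 detected 50 of the 265 genes. The Fyn level was 3.90 UMIs per 1000 (3.54 to 4.30) in P1-rep1, and 0, 3.31 (2.92 to 3.73) and 8.92 (8.35 to 9.52) in P2-rep1, P2-rep2 and P2-rep3. P1-rep1 and P2-rep2 were neighbours whose intervals overlapped. Against the 3-count floor of 0.263 UMIs per 1000 in P2-rep1, the level was at least 14.9-fold higher in P1-rep1.

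Bmp4 was in the smallest share of P1-rep1 cells of the 3 genes and was missing from 2 libraries. It was in 140 of 950 cells of P1-rep1 (14.7%, 12.5 to 17.2), and in 0 of 44, 0 of 43 and 42 of 87 cells of P2-rep1, P2-rep2 and P2-rep3. The counts of 0 allow shares of up to 6.82% and 6.98%, while P2-rep3 had 48.3% (37.4 to 59.2). A count of 0 was the usual state of a gene in P2-rep1 and P2-rep2, with 50 and 93 of 265 genes detected. The Bmp4 level was 2.12 UMIs per 1000 (1.85 to 2.41) in P1-rep1, and 0, 0 and 0.620 (0.477 to 0.794) in P2-rep1, P2-rep2 and P2-rep3. P2-rep2 held 79560 UMIs without one of Bmp4, for a floor of 0.0377 per 1000, and the level in P1-rep1 was at least 56.2-fold higher. No cell of P2-rep3 had more than 4 Bmp4 UMIs.

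Pdgfra was in nearly all cells of the smaller set, at levels that differed 11.2-fold between its 2 captures (9.90 to 12.7). It was in 25 of 25 cells of P1-rep2 and in 98 of 104 cells of P1-rep3 (94.2%, 87.9 to 97.9), a mean of 97.1% ± 4.08 (SD, n = 2). In P1-rep2, 7 of 14 detected genes were in every cell, and in P1-rep3 Pdgfra ranked 5 by share among 27 detected genes. P1-rep2 held 1250 Pdgfra UMIs, or 48.1 per 1000 (45.5 to 50.9), and P1-rep3 held 331, or 4.30 per 1000 (3.85 to 4.79). Without C1qa in the denominator the Pdgfra levels were 320.9 and 58.7 per 1000, a fold of 5.47 (4.84 to 6.19). The lowest cell of P1-rep2, with 23.3 Pdgfra UMIs per 1000, lay above the highest of P1-rep3, with 11.2. The 2 Pdgfra amplicons divided its UMIs in like shares: the PolyA_1 amplicon gave 64.1% (61.3 to 66.7) in P1-rep2 and 68.3% (63 to 73.3) in P1-rep3. All 25 and all 104 cells also carried C1qa, so no cell of the smaller set could serve as one that lacks the markers of another cell type.

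Olig1 went the other way across the same 2 captures. It was in 1 of 25 cells of P1-rep2, with 1 UMI, and in 60 of 104 cells of P1-rep3 (57.7%, 47.6 to 67.3), with 98 UMIs. The Olig1 level was 0.0385 UMIs per 1000 (0.000975 to 0.215) in P1-rep2 and 1.27 (1.03 to 1.55) in P1-rep3, a ratio of 33.1 with a counting interval from 5.80 to 1320.1. Without C1qa in the denominator the ratio was 67.7 (11.9 to 2699). No cell of either library had more than 4 Olig1 UMIs.

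**Figure D1:**
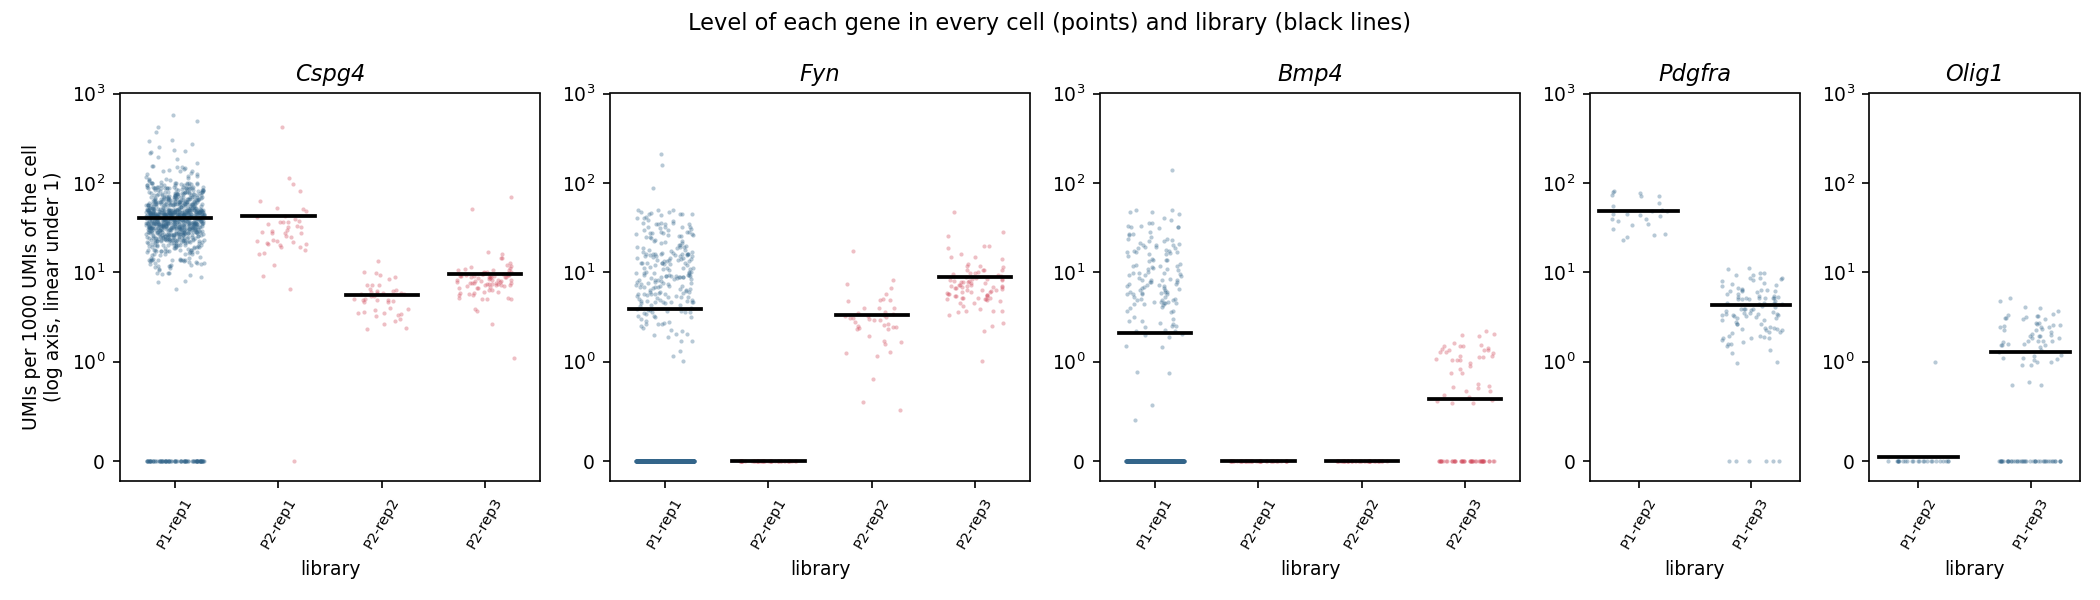
Level of each gene in every kept cell (points) and in the whole library (black lines), in UMIs per 1000 UMIs, on a log axis that is linear under 1; blue is panel 1 and red is panel 2. Cspg4 sits near 40 in P1-rep1 and P2-rep1 and under 10 in P2-rep2 and P2-rep3, and Pdgfra is at 48.1 in P1-rep2 and 4.30 in P1-rep3.

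The wide detection of these genes depended on the depth of the cells. With each cell thinned to 35 UMIs, the expected share of cells with Cspg4 was 78.2% in P1-rep1, and 70.0%, 17.6% and 26.8% in P2-rep1, P2-rep2 and P2-rep3. For Fyn it was 12.3% in P1-rep1, and 0%, 11.3% and 24.8% in P2-rep1, P2-rep2 and P2-rep3. The expected Bmp4 share was 6.42% in P1-rep1 and 1.92% in P2-rep3, the reverse of the order at full depth. Pdgfra came to 79.4% and 13.8% in P1-rep2 and P1-rep3, and Olig1 to 0.141% and 4.27%. C1qa took 85.0% and 92.7% of the UMIs of P1-rep2 and P1-rep3, so few of the 35 UMIs there were of other genes. The parts of depth and of C1qa in these shares of the smaller set were not tested apart. Thinning left out 306 cells of P1-rep1 and 1 cell of P2-rep1.

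**Figure D2:**
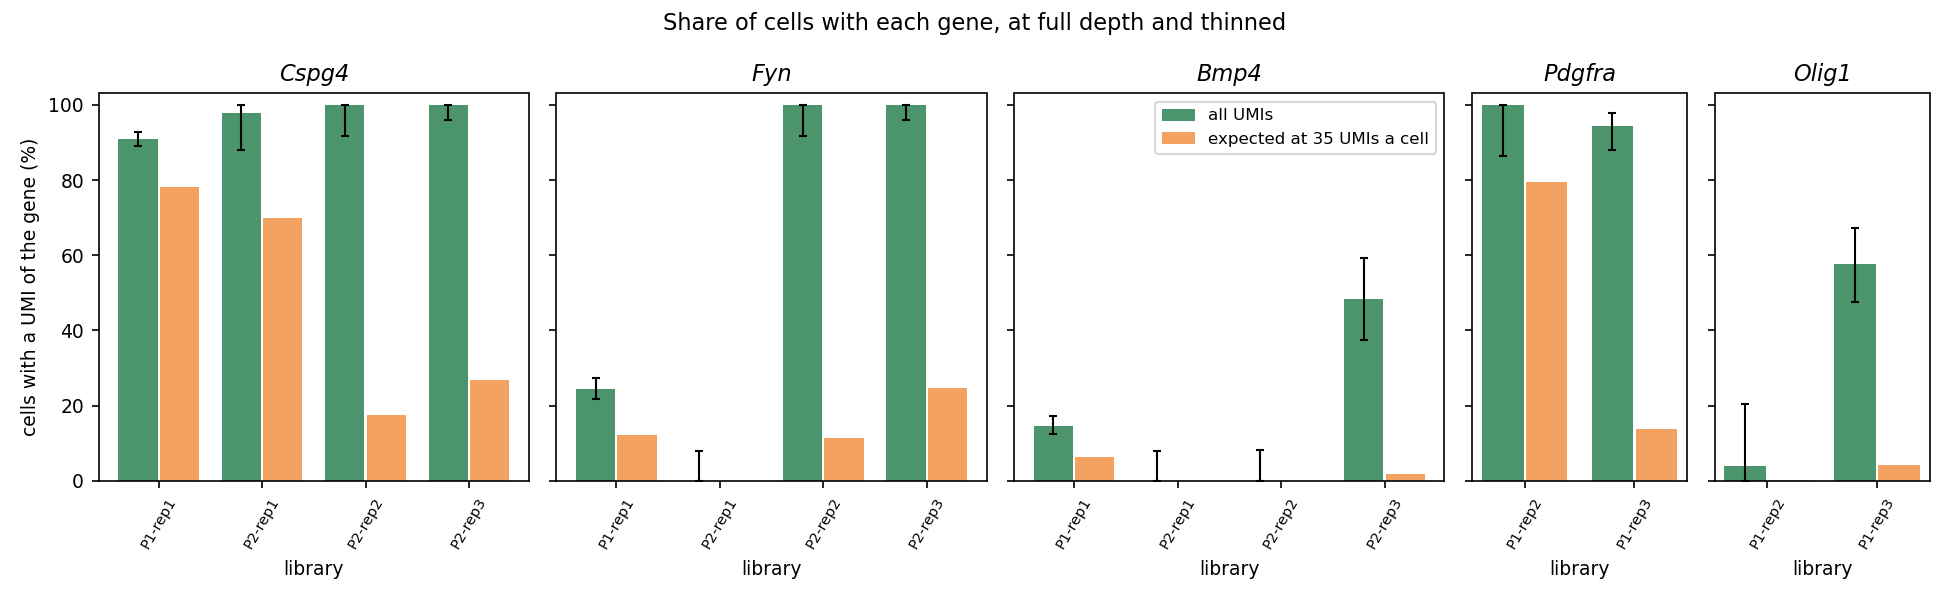
Share of cells (%) with at least 1 UMI of each gene by library, at full depth (green, exact 95% intervals) and as calculated for cells thinned to 35 UMIs (orange). The share of cells with Cspg4 in P2-rep2 is 100% at full depth and 17.6% thinned.

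P1-rep1 has enough cells to follow this within 1 library. Cspg4 was in 78.4% of the 306 cells with 20 to 34 UMIs and in 100% of the 105 cells with 200 to 499. Fyn was in 7.52% and 57.1% of the cells of these 2 bins, and Bmp4 in 4.90% and 41.9%. The levels moved much less: in those 2 bins Cspg4 had 44 and 47.9 UMIs per 1000, Fyn 3.50 and 4.18, and Bmp4 2.25 and 2.25. In the 20 cells with at least 500 UMIs, the Cspg4 level was 21.4 per 1000.

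**Figure D3:**
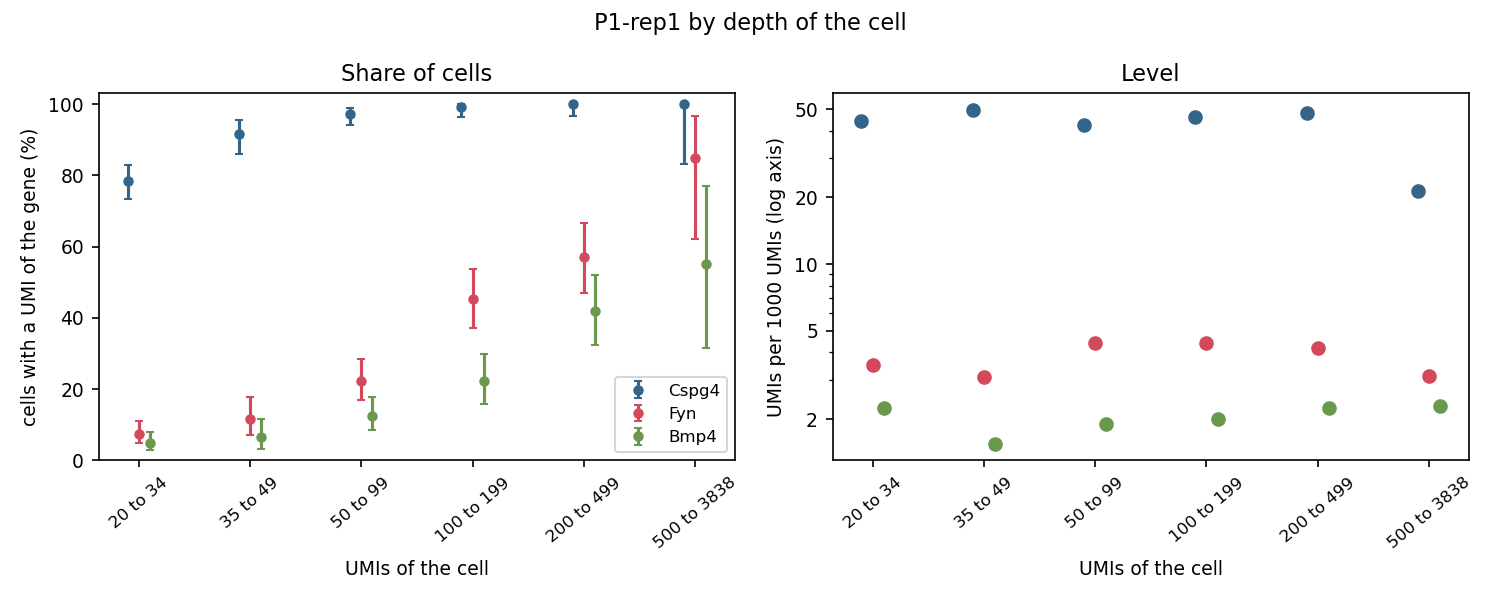
Share of cells with each gene (left, %, exact 95% intervals) and its level (right, UMIs per 1000 UMIs, log axis) in P1-rep1, by the UMIs of the cell. Shares climb with depth for all 3 genes, while levels stay close except for Cspg4 at 21.4 in the 20 deepest cells.

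At full depth, cells with one of these genes had another more often than cells without it, a difference that was small or turned round in thinned cells. In P1-rep1, 58 of 950 cells (6.11%) carried all 3 and 81 (8.53%) none. Fyn was in 26.5% (23.6 to 29.6) of 864 cells with Cspg4 and in 4.65% (1.28 to 11.5) of 86 cells without it, but cells with Cspg4 had a median of 56 UMIs and those without had 25. Thinned to 35 UMIs, these Fyn shares were 12.4% and 12%. Bmp4 was in 24.9% (19.5 to 31) of 233 cells with Fyn and in 11.4% (9.20 to 14) of 717 without, and thinned the shares were 5.73% and 6.52%, which turns the sign of the difference. In P1-rep3, Olig1 was in 59 of 98 cells with Pdgfra (60.2%, 49.8 to 70.0) and in 1 of 6 without it, and thinned the shares were 4.65% and 4.20%. With C1qa at 92.7% of the UMIs of P1-rep3, few UMIs of other genes remain in its thinned cells. Those thinned shares therefore cannot tell whether Pdgfra and Olig1 go together. In P1-rep1, thinned cells held a mean of 0.143 Fyn and 0.0673 Bmp4 UMIs, so their shares too can tell little of joint presence. Rank correlations over cells (Spearman's rho on UMIs per 1000) were taken within libraries. Between Cspg4 and Fyn rho was -0.03 in P1-rep1, and 0.25 and 0.18 in P2-rep2 and P2-rep3. Between Cspg4 and Bmp4 it was 0.02 in P1-rep1 and 0.30 in P2-rep3. Between Fyn and Bmp4 it was 0.11 in P1-rep1 and 0.05 in P2-rep3. Between Pdgfra and Olig1 rho was 0.21 in P1-rep3. C1qa is in the denominator of both levels there, with rho of -0.28 to Pdgfra and -0.26 to Olig1. A rho without C1qa was not calculated. These cells share a library, and no test was made over them.

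Cells with and without a UMI of the reporter differed in depth, and the differences in the 3 genes were small or turned round in thinned cells. In P1-rep1, Fyn was in 42% (36.2 to 48) of 281 cells with a tdTomato UMI and in 17.2% (14.4 to 20.3) of 669 without, at medians of 131 and 41 UMIs. Thinned to 35 UMIs, the Fyn shares were 14.9% and 11.9%. The Bmp4 shares were 23.8% (19 to 29.3) with and 10.9% (8.65 to 13.5) without the reporter, and thinned they were 4.44% and 6.76%, which turns the sign. Cspg4 was in 97.5% of cells with and 88.2% of cells without a reporter UMI, and thinned in 78.9% and 78.1%. P2-rep1, the library with no Fyn or Bmp4 UMI, also had no tdTomato UMI.

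Single cells stood far above the rest of their library for Cspg4 in 3 of the 4 libraries. In P1-rep1 the highest cell had 571.4 Cspg4 UMIs per 1000 (32 of 56 UMIs) and 46 cells had at least 100, around a median of 38.9. In P2-rep1 the highest cell had 427.0 (76 of 178 UMIs). P2-rep3 had a cell that was high for Fyn as well. The cell with the highest Cspg4 level there held 33 Cspg4 and 22 Fyn UMIs among 470, and was the highest for both genes, at 70.2 and 46.8 UMIs per 1000, where the median cells had 8.15 and 7.01. It had 0 Bmp4 UMIs. The next cell for Cspg4 held 66 of its UMIs with 147 of Rarres2 among 1282. In P2-rep2 the highest cell had 13.3 Cspg4 UMIs per 1000 and the lowest 2.33, around a median of 5.04.

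Rarres2, which encodes the chemoattractant chemerin, had the pattern most like Cspg4 of 113 candidate genes of the larger set. Its level was 41.7 UMIs per 1000 in P1-rep1 and 52.3, 3.33 and 10.0 in P2-rep1, P2-rep2 and P2-rep3, a root mean square difference of 0.40 on the log2 scale from Cspg4 after centring, over 4 libraries. Over cells, rho between Cspg4 and Rarres2 was 0.49 in the 273 cells of P1-rep1 with at least 100 UMIs (0.13 over all 950), and 0.68, 0.53 and 0.35 in P2-rep1, P2-rep2 and P2-rep3. Rarres2 was the closest gene to Cspg4 over cells in P2-rep1 alone. The closest was Trim28 in P1-rep1 (rho 0.13, all 950 cells), Pigv in P2-rep2 (0.55) and Itih5 in P2-rep3 (0.46). Rarres2 was also the second closest gene to Pdgfra over cells of P1-rep2 (rho 0.82), after Pvalb (rho 0.84), over 25 cells, where rho of Pdgfra with C1qa was -0.75. C1qa, at 85.0% of the UMIs of P1-rep2, is in the denominator of these levels, and rho without it was not calculated. In P1-rep3, rho between Pdgfra and Rarres2 was 0.18 over 104 cells, with C1qa in the denominator there too. The cell of P2-rep1 with 183 Cspg4 UMIs had 319 of Rarres2 among 1612. Bcas1, known from oligodendrocytes that begin to myelinate, was next to Cspg4 over libraries, with 60.5 UMIs per 1000 in P1-rep1 and 95.8, 23.1 and 16.7 in panel 2. Fyn was closest to Ugdh (root mean square 0.30) and Bmp4 to Fabp7 (0.28). With 2 libraries in the smaller set, likeness there rests on 1 difference per gene and is not described further.

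The cells richest in genes of each list were set against the other cells of P1-rep1 with at least 100 UMIs, which gives 14 and 259 cells. In the cells richest in the ependyma list, whose UMIs were all of Rarres2, Cspg4 reached 133.3 UMIs per 1000 UMIs of other genes (119.6 to 148.2), against 37.2 (35.8 to 38.7) in the other cells. The median of those 14 cells was 129.7, so the level was not set by 1 cell. In the cells richest in the mural genes Acta2 and Mustn1, Cspg4 had 79 (69.4 to 89.5) against 37.7 (36.3 to 39.2) in the other cells, but the median of the 14 cells was 39. Cspg4 was lower in the cells richest in 4 other lists, with intervals apart. It had 19.4 (14.6 to 25.2) against 40.9 (39.4 to 42.4) for Fcer1g, a gene of microglia and macrophages, and 18.9 (16.2 to 22) against 42.6 (41 to 44.2) for the astrocyte genes. It had 20.4 (18 to 23.1) against 45.7 (44 to 47.5) for the fibroblast genes and 24.8 (21.5 to 28.4) against 45.2 (43.5 to 46.9) for the endothelial genes. Over all kept cells of P1-rep1, Fn1 gave 5320 of the 6012 UMIs of the fibroblast list and was in 90.2% of cells. The cells richest in the fibroblast and endothelial lists were deeper, at medians of 504 and 377 UMIs against 186. The astrocyte-rich cells had a median of 131 UMIs against 187, but 1 of them held 53 of their 170 Cspg4 UMIs. Deep cells weigh most in these summed levels. The median cell had a Cspg4 level of 25.6 against 37.9 for the astrocyte genes. It had 23.7 against 39.1 for the fibroblast genes, 24.8 against 40.4 for the endothelial genes and 16.9 against 38.5 for Fcer1g. Over the 20 cells with at least 500 UMIs, Cspg4 had 21.4 per 1000 of all UMIs, and the part of depth was not tested. Cspg4 was still present in 92.9% of the Fcer1g-rich cells, at a median of 165.5 UMIs, and in 100% of the others, at a median of 187. Cells rich in the oligodendrocyte genes Ermn and Ugt8a had 42.7 (35.4 to 51.1) against 38.9 (37.5 to 40.4) Cspg4 UMIs per 1000, and those rich in Bcas1 had 50.1 (38.6 to 63.9) against 40.9 (39.4 to 42.4). The intervals of the richest and the other cells overlapped for both. Fyn and Bmp4 rested on 46 or fewer UMIs in the richest cells of any list. Fyn had intervals apart for Fcer1g alone, at 0.692 (0.0838 to 2.50) against 4.16 (3.70 to 4.66), from 2 UMIs in the richest cells. Bmp4 was lower for Fcer1g, at 0.346 (0.00876 to 1.93) against 2.33 (1.99 to 2.71), from 1 UMI. Its summed level was also lower for the endothelial genes, at 0.957 (0.413 to 1.89) against 2.61 (2.22 to 3.04), from 8 UMIs. For the tanycyte genes it was 0.888 (0.357 to 1.83) against 2.41 (2.05 to 2.81), from 7 UMIs. The shares of cells with Bmp4 lay closer, at 35.71% against 32.05% for the endothelial genes and 28.57% against 32.43% for the tanycyte genes. The median cell had a Bmp4 level of 0 in all these groups. No richest cell of these 2 lists had more than 2 Bmp4 UMIs, while the highest of the other cells had 22. Levels without that cell were not calculated. The part of other cell types in these levels was not tested.

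**Figure D4:**
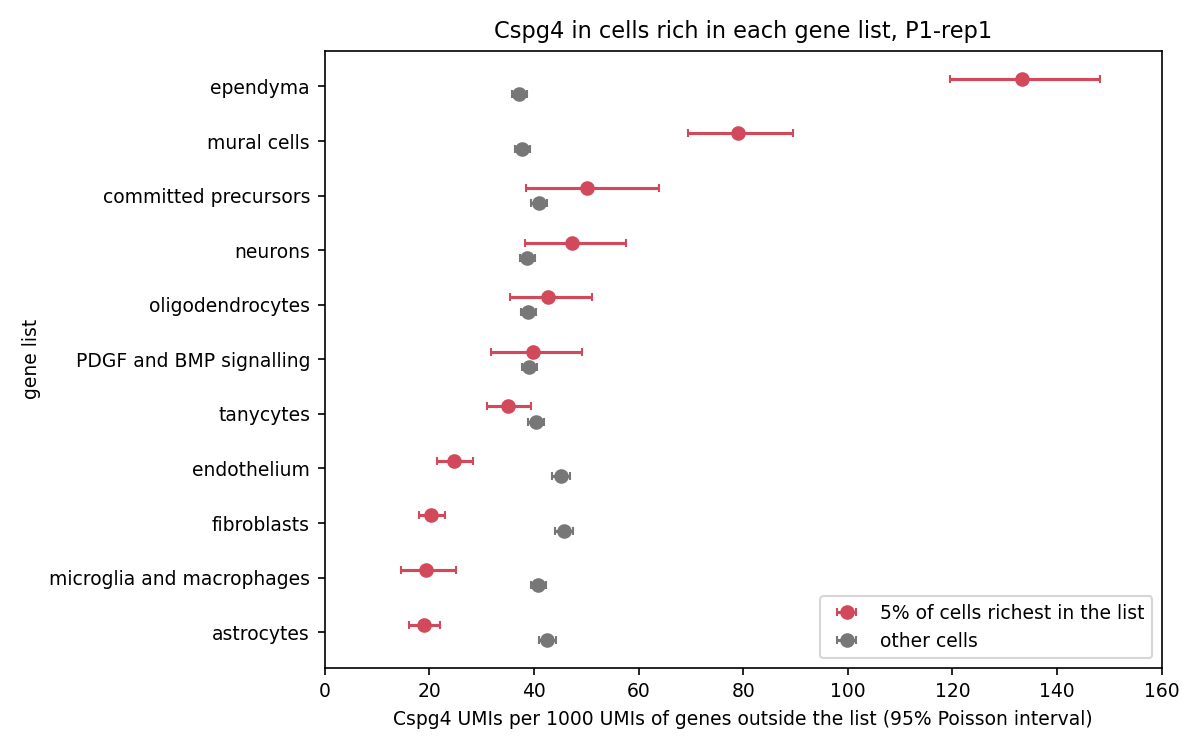
Cspg4 level in P1-rep1, in UMIs per 1000 UMIs of genes outside the list, in the 5% of cells richest in each gene list (red) and in the other cells (grey), with 95% Poisson intervals. Cells rich in the ependyma list sit at 133.3 against 37.2 in the others.

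Few genes of the related pathways were measured. Of 21 genes of PDGF and BMP signalling the larger set held Bmp2 and Bmpr1a, of 18 committed precursor genes it held Bcas1, and of 9 Src family kinases and partners none. Bmpr1a, a receptor for BMP4, was in 28.9% of cells of P1-rep1 and in 70.5%, 100% and 100% of cells of P2-rep1, P2-rep2 and P2-rep3. Bmp2, a second BMP ligand, was listed at 0 in 3 libraries and was in 33.3% of cells of P2-rep3, the same library in which Bmp4 was found in panel 2. The mature oligodendrocyte gene Mag was in every cell of the smaller set, at 10.3 and 9.18 UMIs per 1000 in P1-rep2 and P1-rep3, while Mobp was listed at 0 in P1-rep2 and had 1.64 in P1-rep3. Olig1 had its highest rank correlation over cells of P1-rep3 with Mobp (rho 0.27, 104 cells). Its rho with C1qa, which held 92.7% of the UMIs and is in the denominator, was -0.26. Values without C1qa were not calculated. Other lists moved with the libraries too: the mural genes had 12.6 UMIs per 1000 in P1-rep1 and 49.8, 3.58 and 4.25 in panel 2, with Mustn1 at 0 in all of panel 2.

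The panels are the only groups in the labels, but the panel label does not follow the gene set. Panel 1 held the larger set in replicate 1 and the smaller set in replicates 2 and 3. P1-rep1 was compared with the 3 libraries of panel 2, which held the same larger set, by edgeR's quasi-likelihood test. The lone panel 1 library was assumed to vary like panel 2, p-values measure the spread between these captures, and panel, depth and pipeline version cannot be told apart. None of the 3 members was called at an adjusted p under 0.05, beside 1.27% of the 157 genes tested. Cspg4 had a log2 fold change of 2.17 (SE 1.66, adjusted p = 0.775), Fyn 0.44 (SE 4.64, adjusted p = 0.999) and Bmp4 3.84 (SE 5.10, adjusted p = 0.999), panel 1 over panel 2. The median of all genes tested was 0.54, and it was -0.06 without TMM scaling, where Fyn was at -0.06 and Cspg4 at 1.08 (adjusted p = 0.991). Of the 3 members, only Cspg4 changed its call with a library left out: without P2-rep1 its log2 fold change was 3.25. More genes outside the members were called in that fit too, so the change was not particular to Cspg4. P2-rep1 is the panel 2 library of the same capture, so without it panel and capture cannot be told apart either. The 2 genes called were Fn1 and Slco1c1, both higher in P1-rep1, at 50.3 and 35.3 UMIs per 1000 there, and the count was 6 by DESeq2. Slco1c1 was at 0 in all of panel 2, and Fn1 at 0 in P2-rep1 and P2-rep2 and at 0.0394 in P2-rep3.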

How the data were processed

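The deposited values are UMI counts per barcode and amplicon, not normalized, produced, per the file headers, by BD's targeted Rhapsody pipeline in version 1.3 (P1-rep1) or 1.5 (other tables). The submitters' processing notes name mm9, and the aligner is not given in the sources used here. Amplicons were summed by symbol. Barcodes with at least 20 UMIs and 5 genes were kept (1253 of 1858), which left out 605 barcodes of P1-rep1. No doublets were called. Mbp, listed in 1 library only, stayed out of totals. Shares have Clopper-Pearson and levels Poisson intervals, and cells are not replicates. Library sums were tested with edgeR 4.0.16 (TMM, filterByExpr, glmQLFTest, Benjamini-Hochberg), the SE being the log2 fold change over the root of F, and with DESeq2 1.42.0, in R 4.3.3. Other values came from scipy 1.17.1, pandas 2.3.3 and numpy 2.4.6 (Python 3.11.15), with plots by matplotlib 3.10.9. Promoters are RefSeq's. Named are the members, up to 4 measured genes of each of 12 lists, the 3 genes most like a member over libraries (0.1 added before logs) and the closest over cells. Rarres2 over all libraries was looked at after its values were seen. The members and lists were chosen with earlier results of these data known. Certain genes are not reported here.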

Additional observations from a re-analysis of the deposited data

Results flagged for a closer look

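The 21 barcodes listed in the tables of 2 replicates entered no comparison, yet held UMIs of members of the larger set. Cspg4 was in 47.6% (25.7 to 70.2) and Fyn in 76.2% (52.8 to 91.8) of them, at a median of 294 UMIs. Fyn gave 296 UMIs and Cspg4 26, and Bmp4 was at 0. Which capture these barcodes belong to was not tested.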

How the results depend on the processing

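With cells thinned to 35 UMIs, the mean share of cells with Cspg4 in panel 2 was 38.1% and that of Pdgfra in the smaller set 46.6%. At 2 or more UMIs these shares were 95.1% and 86.5%, and with the 21 shared barcodes kept Cspg4 was at 93.5%. Without C1qa in the denominator, the mean levels of Pdgfra and Olig1 were 189.8 and 8.81 UMIs per 1000, and the Pdgfra fold between captures was 5.47. In P1-rep1, the difference in Fyn share between cells with and without Cspg4 was 21.9 percentage points, 0.311 thinned and 8.53 at 2 or more UMIs. For Bmp4 it was 14.9, 0.220 and 4.43, and between cells with and without Fyn the Bmp4 difference of 13.5 turned to -0.793 thinned and was 14.6 at 2 or more UMIs. Against the 2 genes called between panels, DESeq2 called 6, and 5 with the mean dispersion as trend. Keeping the shared barcodes left 0 calls, with 4 genes at an unadjusted p under 0.05. Leaving out panel 2 libraries gave 0 to 9 calls: 9 without replicate 1, 0 without replicate 2 (2 genes at an unadjusted p under 0.05) and 1 without replicate 3. The log2 fold change of Fyn was -0.063 without TMM. Of the other values, 70 for shares, levels, co-detection and the count of calls and 29 for the folds of single genes kept their direction and stayed within the replicate spread or on their side of the threshold. The spread over captures is wide, so this says little of stability: without replicate 1, 2 or 3, the Cspg4 level in panel 2 ranged from 7.56 to 26. Mbp in the denominator, the cells richest in a gene left out and the mean dispersion trend were chosen after seeing the data. No paired analysis was possible because panel 1 holds the larger set in replicate 1 alone, so the groups share 1 replicate number.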
